A study of Rattus norvegicus with 48 samples.

Results

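Ckmt2 (ENSRNOG00000055450), Rtn4ip1 (ENSRNOG00000000279), Prodh1 (ENSRNOG00000000281) and Sqrdl (ENSRNOG00000000172) code for mitochondrial enzymes and were followed through all 48 muscle libraries of a rat immobilization study. They are 4 of the 31998 genes in the count table and all 4 are among the 16960 genes that passed the filter on low counts. They were picked by name with results of these libraries known. The study's lists of changed genes hold Ckmt2 for immobilized plantaris of both lines, Rtn4ip1 for LRT plantaris, Prodh1 for soleus of both lines and Sqrdl for HRT soleus. The comparisons taken to have chosen each gene are read from these lists, since the genes were given by name alone. For those pairs of gene and comparison, and for differences between uncast groups that share CTRL libraries with them, the values are given as a description, with no test. The other muscle of the same rats was tested, but its libraries are not independent of the choice, since same-numbered libraries of the muscles varied together (r from 0.64 to 0.86 for the 4 genes). The lists take absolute log2 fold changes over 1, and in the fit used here the chosen value nearest to that limit was -1.03 (Rtn4ip1, LRT plantaris) and the nearest value short of it was 0.98 (Prodh1, HRT plantaris).

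The rats were 14-month-old females of generation 19 of lines bred for a low (LRT) or a high (HRT) response to treadmill training. Hindlimb immobilization (HI) held a hindlimb in a fiberglass cast, the foot in plantar flexion, for 3 d, and the muscles came from that limb. Controls (CTRL) were separate rats without a cast, anaesthetized and dissected in the same way. The methods place the animals' own treadmill training well before the experiment and describe an injection of puromycin shortly before collection. Plantaris, a fast muscle, and soleus, a slow muscle, were taken from 24 rats, which gave 8 groups of 6 libraries. A library held between 26.8 M and 36.4 M estimated counts (median 30.4 M) and its RNA integrity number (RIN) was between 7.8 and 8.6. Levels are given in CPM, gene counts relative to the library's total after TMM scaling, and they compare libraries, not genes, since transcript length is not taken out. The 6 fast fibre markers summed to between 19200 and 31600 CPM in CTRL plantaris and to between 1680 and 4340 CPM in CTRL soleus. The 4 slow fibre and oxidative markers summed to between 2210 and 4560 CPM in CTRL plantaris and to between 11600 and 23300 CPM in CTRL soleus. Both lists set the muscles apart as labelled, although the slow marker Pln alone overlapped between them, at 12.3 to 35.8 CPM in CTRL plantaris and 11.3 to 28.1 CPM in CTRL soleus. In bulk muscle, fewer fibres of a type and less RNA per fibre cannot be told apart.

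The 4 enzymes sit at different entries to mitochondrial energy metabolism. Ckmt2 is the mitochondrial creatine kinase of striated muscle, which charges creatine with phosphate from newly made ATP. Rtn4ip1 is a mitochondrial oxidoreductase with a role in the making of coenzyme Q. Prodh1, named Prodh in RefSeq, is proline dehydrogenase, the enzyme of the first step of proline breakdown. Sqrdl, named Sqor in RefSeq, is sulfide:quinone oxidoreductase, which oxidizes hydrogen sulfide. Prodh1 and Sqrdl both hand electrons to the respiratory chain.

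Promoter windows were available from RefSeq on build GRCr8 for Ckmt2, Rtn4ip1 and Sqrdl, each of 300 bases, from 250 before to 50 after the transcription start. The counts themselves refer to Rnor_6.0, so these positions belong to the sequences alone. The windows of Ckmt2 (chr2:24845462-24845761, minus strand) and Rtn4ip1 (chr20:48964685-48964984, plus strand) are shown because the fitted levels of both genes were lower in immobilized plantaris of both lines, although Rtn4ip1 did not pass in HRT, and because they varied together among the HI libraries. Capitals mark the pentamer CCAAT on either strand, which reads ATTGG in both windows.
Ckmt2: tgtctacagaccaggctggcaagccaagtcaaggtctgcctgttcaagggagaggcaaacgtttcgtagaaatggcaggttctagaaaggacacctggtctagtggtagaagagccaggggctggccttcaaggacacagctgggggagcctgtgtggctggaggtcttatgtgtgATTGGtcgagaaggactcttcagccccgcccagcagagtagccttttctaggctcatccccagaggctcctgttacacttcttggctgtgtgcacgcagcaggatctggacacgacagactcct
Rtn4ip1: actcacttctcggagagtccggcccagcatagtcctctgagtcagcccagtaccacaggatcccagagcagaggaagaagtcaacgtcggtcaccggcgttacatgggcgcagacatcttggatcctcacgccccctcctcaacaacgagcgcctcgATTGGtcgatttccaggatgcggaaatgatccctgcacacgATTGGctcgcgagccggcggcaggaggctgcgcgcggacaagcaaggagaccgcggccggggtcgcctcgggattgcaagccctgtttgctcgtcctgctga

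The match in the Ckmt2 window begins 74 bases before the start, and those in the Rtn4ip1 window begin 93 and 52 bases before it. CCAAT is held on either strand by 37.5% of the 33469 rat promoter windows of this length, so a match is common and is a description only. The window of Sqrdl held a match as well, 26 bases before its start. The Rtn4ip1 window also serves a second gene. Qrsl1, which codes for a subunit of the mitochondrial glutamyl-tRNA amidotransferase, starts 123 bases away on the opposite strand and is read in the other direction, and 222 of the 300 bases of the windows are shared. The Ckmt2 window further held 2 matches of CANNTG (found in 72.1% of windows) and 1 of GGGCGG (33.1%). AAGGTCA (4.6%) and TATAAA (14.2%) were found in neither window on either strand, which says only that these letters are not there.

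**Figure D1:**
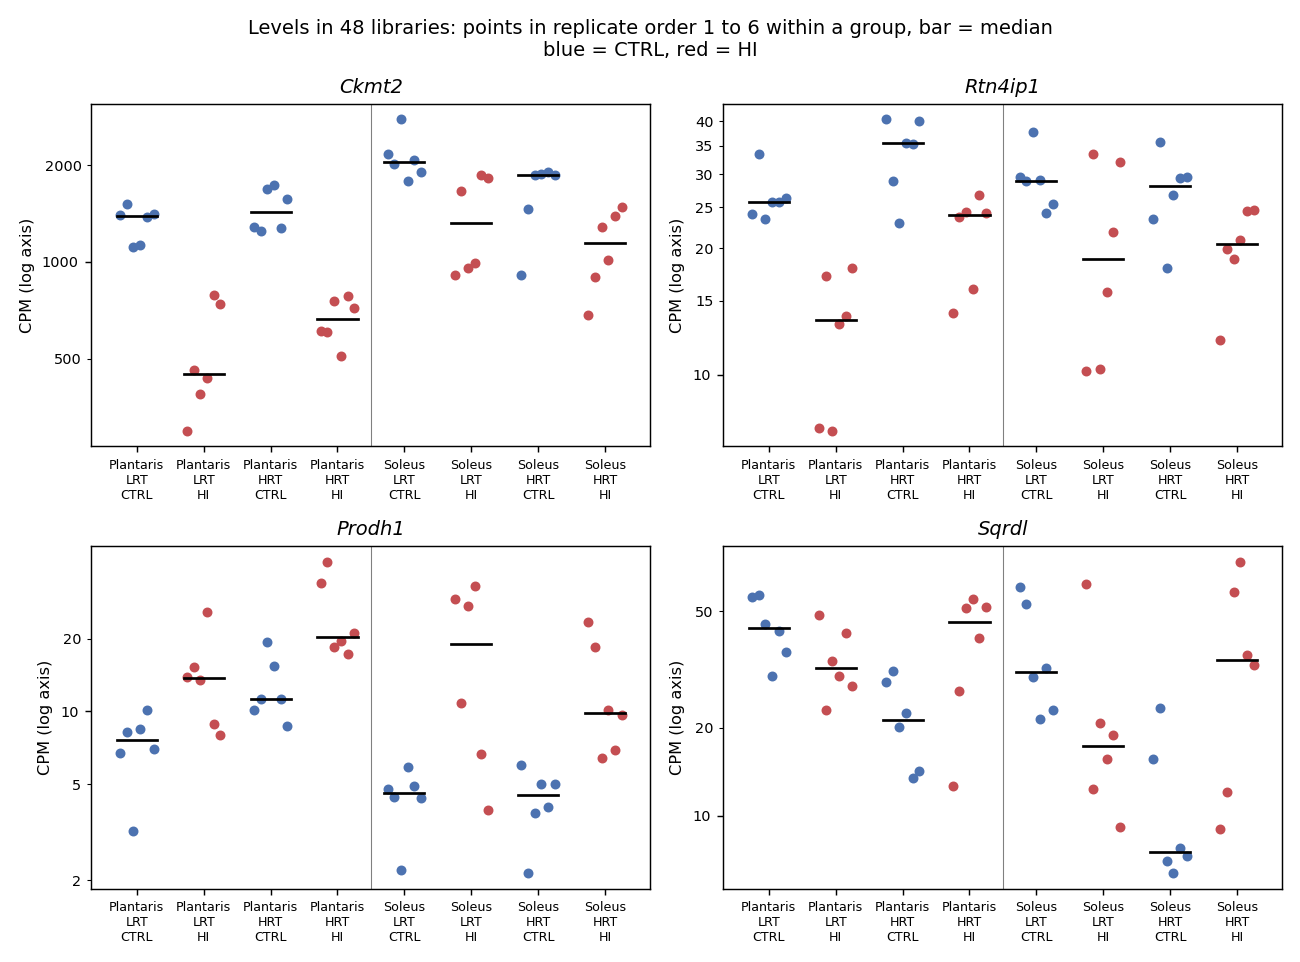
Levels of the 4 genes in CPM (log axis) in each of the 48 libraries, by muscle, line and treatment; points within a group stand in replicate order 1 to 6 and bars are medians. Ckmt2 in immobilized plantaris reached at most 790 CPM, below the lowest uncast plantaris library at 1110 CPM, while the 6 Sqrdl values of HRT HI soleus ran from 9.02 to 74 CPM.

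The fitted level of Ckmt2 was lower after immobilization in all 4 comparisons, with the larger values in plantaris, though the difference between the muscles was not tested. In LRT plantaris it lay between 1110 and 1510 CPM in CTRL (median 1390) and between 298 and 790 CPM in HI (median 447). In HRT plantaris it lay between 1250 and 1730 CPM in CTRL (median 1430) and between 508 and 785 CPM in HI (median 661). In both lines every HI plantaris library was below every CTRL plantaris library. The share of all genes with no overlap was not computed, for this or any other comparison here, so such separations are a description. The log2 fold changes of -1.36 ± 0.21 (SE) in LRT plantaris and -1.15 ± 0.21 in HRT plantaris are values that chose the gene and carry no test. Among all tested genes 13.6% were called lower and 15.1% higher in LRT plantaris at an adjusted p under 0.05, and 5.85% lower and 5.11% higher in HRT plantaris.

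The soleus comparisons did not choose Ckmt2. In LRT soleus it lay between 1790 and 2780 CPM in CTRL (median 2040) and between 907 and 1860 CPM in HI (median 1330). The HI libraries fell into a low set, replicates 1, 3 and 4 at 907 to 990 CPM, and a high set, replicates 2, 5 and 6 at 1660 to 1860 CPM, and the groups overlapped. The decrease was 1.55-fold (log2 fold change -0.63 ± 0.21, edgeR adjusted p = 0.037), and 6.58% of all genes were called lower and 7.36% higher in this comparison. The call was fragile. It was lost when any of HI replicates 1, 3 and 4 or CTRL replicates 1, 2, 3, 5 and 6 was left out, with log2 fold changes from -0.51 to -0.64 in those fits and the highest adjusted p at 0.12. It was also lost with each muscle fitted alone (-0.65, adjusted p = 0.067) and without the filter on low counts (-0.62, adjusted p = 0.065). In HRT soleus Ckmt2 lay between 913 and 1900 CPM in CTRL (median 1870) and between 685 and 1480 CPM in HI (median 1140), again with overlap. There the log2 fold change of -0.55 ± 0.21 did not pass the test (adjusted p = 0.068), against 8.23% of genes called lower and 7.95% called higher. CTRL replicate 1, at 913 CPM, was the lowest of its group, and without it the value was -0.66 (adjusted p = 0.023). It also passed without HI replicate 5 (-0.62, adjusted p = 0.048) or HI replicate 6 (-0.65, adjusted p = 0.035), and by DESeq2 (-0.56, adjusted p = 0.0498). With the replicate number as a block it passed too (adjusted p = 0.024), but that block joins same-numbered libraries of different rats.

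The difference between the line responses (DELTA, the LRT minus the HRT log2 fold change) was small for Ckmt2. It was -0.08 ± 0.29 in soleus (adjusted p = 0.96), a comparison in which 0.0295% of all genes were called. In plantaris it was -0.21 ± 0.29, given without a test because the gene was chosen there, and lay between -0.38 (without LRT HI replicate 5) and -0.09 (without LRT HI replicate 1) with 1 library left out. In that comparison 0% of genes were called by edgeR, with 1060 genes at an unadjusted p under 0.05, 6 called by DESeq2 and 2 by limma-voom. Every LRT CTRL plantaris library was below every LRT CTRL soleus library for Ckmt2, with a fitted plantaris level 1.61-fold lower (plantaris against soleus log2 difference -0.69 ± 0.22), and in HRT CTRL the difference was -0.18 ± 0.21, or -0.32 without soleus replicate 1 and -0.11 without plantaris replicate 2. The uncast lines differed by -0.15 ± 0.21 in plantaris, or by -0.09 without HRT CTRL replicate 4. These 3 differences share CTRL plantaris libraries with the comparisons that chose Ckmt2 and carry no test. In CTRL soleus, which was open to a test, LRT minus HRT was 0.36 ± 0.21 and did not pass (adjusted p = 0.41), where 1.45% of all genes (246) were called. The count of called genes was 139 without LRT CTRL replicate 1, 156 without LRT CTRL replicate 5, 150 without HRT CTRL replicate 1, 99 with each muscle fitted alone and 437 by DESeq2. By median the 8 groups ran from LRT HI plantaris through HRT HI plantaris, HRT HI soleus, LRT HI soleus, LRT CTRL plantaris, HRT CTRL plantaris and HRT CTRL soleus to LRT CTRL soleus, and the ranges of neighbours in that order overlapped at every step.

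Rtn4ip1 was likewise at its lowest in immobilized LRT plantaris. There it lay between 23.5 and 33.4 CPM in CTRL (median 25.8) and between 7.36 and 17.9 CPM in HI (median 13.5), with no overlap. HI replicates 1 and 3, at 7.46 and 7.36 CPM, were the lowest, and the log2 fold change of -1.03 ± 0.24 is the value that chose the gene. The other 3 comparisons were open to a test. In HRT plantaris it lay between 22.9 and 40.5 CPM in CTRL (median 35.5) and between 14.0 and 26.7 CPM in HI (median 23.9). The groups overlapped through 1 CTRL library, replicate 3 at 22.9 CPM, and the log2 fold change of -0.64 ± 0.24 missed the threshold (edgeR adjusted p = 0.073).

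In LRT soleus Rtn4ip1 lay between 24.2 and 37.8 CPM in CTRL (median 28.9) and between 10.2 and 33.4 CPM in HI (median 18.8). The HI spread was wide, with replicates 1 and 3 at 10.2 and 10.3 CPM and replicates 2 and 6 at 33.4 and 32.1 CPM, and the log2 fold change of -0.51 ± 0.24 did not pass (adjusted p = 0.15). Without HI replicate 6 it was -0.69 (adjusted p = 0.045). In HRT soleus it lay between 17.9 and 35.7 CPM in CTRL (median 28.1) and between 12.1 and 24.7 CPM in HI (median 20.4), with overlap and a log2 fold change of -0.45 ± 0.24 (adjusted p = 0.20). With all libraries and no block of the replicate number or of the rat, no tested comparison of Rtn4ip1 passed. DELTA in soleus was -0.06 ± 0.33 (adjusted p = 0.97) and DELTA in plantaris, not tested, was -0.39 ± 0.33. Uncast plantaris and soleus differed by 0.33 ± 0.24 in HRT on the log2 scale (adjusted p = 0.29, with 38.8% of all genes called). With number, line and treatment as a rat block this difference was 0.32 and passed (adjusted p = 0.036), where 7417 genes were called. The uncast lines differed by 0.10 ± 0.24 in soleus (adjusted p = 0.89). The muscle difference in LRT (-0.12 ± 0.24, and -0.02 without soleus replicate 3) and the line difference in plantaris (-0.35 ± 0.24) share the LRT CTRL plantaris libraries with the choosing comparison and carry no test. In order of their medians the groups were LRT HI plantaris, LRT HI soleus, HRT HI soleus, HRT HI plantaris, LRT CTRL plantaris, HRT CTRL soleus, LRT CTRL soleus and HRT CTRL plantaris, so that all 4 HI groups came below all 4 CTRL groups, while neighbours overlapped throughout.

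Qrsl1 (ENSRNOG00000026049), the gene that shares the Rtn4ip1 window, fell in plantaris of both lines. In LRT plantaris Qrsl1 lay between 17.2 and 21.1 CPM in CTRL and between 4.94 and 11.0 CPM in HI, without overlap (log2 fold change -1.13 ± 0.16, edgeR adjusted p = 3.1e-06). In HRT plantaris it lay between 17.1 and 21.4 CPM in CTRL and between 7.89 and 13.0 CPM in HI, again apart (-0.73 ± 0.15, adjusted p = 0.0025). In soleus it was -0.37 ± 0.15 in each line, and neither value passed (adjusted p = 0.099 for LRT, 0.091 for HRT). Qrsl1 carries a symbol here because the study listed it as changed in these libraries. Only its LRT plantaris value exceeds an absolute log2 fold change of 1 here. Its test and its lack of overlap in that comparison are thus a description and no independent evidence.

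**Figure D2:**
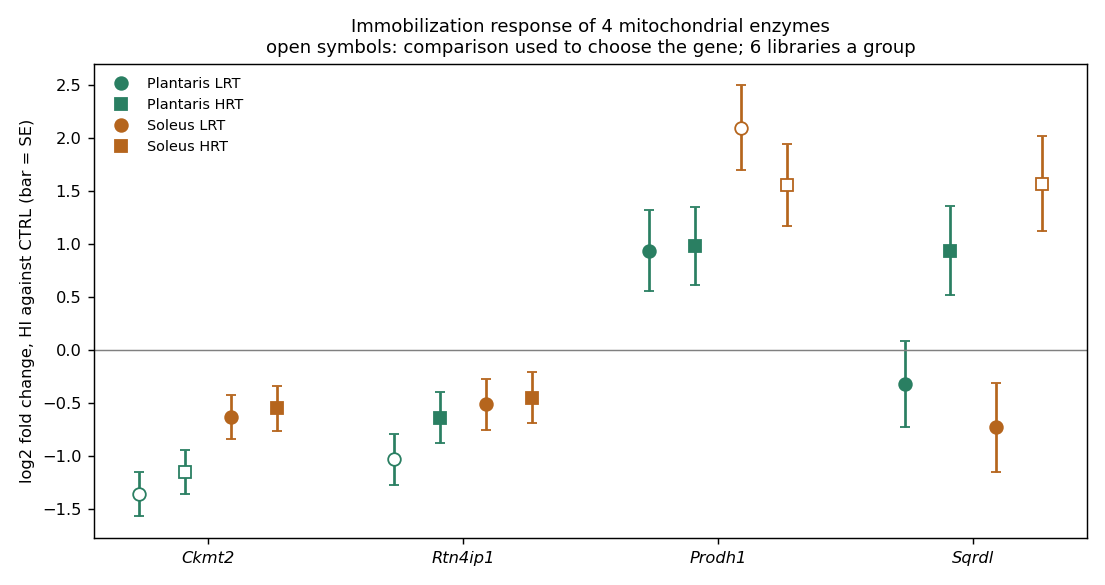
Log2 fold change of HI against CTRL for each gene in LRT and HRT plantaris (green) and soleus (brown), with SE bars and 6 libraries a group; open symbols mark the comparisons that chose the gene. Ckmt2 and Rtn4ip1 lie below 0 in all 4 comparisons, Prodh1 above 0 in all 4, and Sqrdl below 0 in LRT and above 0 in HRT.

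Prodh1 had higher fitted levels after immobilization in all 4 comparisons. In LRT soleus it lay between 2.21 and 5.89 CPM in CTRL (median 4.60) and between 3.91 and 33.2 CPM in HI (median 19.0). HI replicates 1, 3 and 4 were at 27.3 to 33.2 CPM, replicate 2 at 10.8 CPM and replicate 5 at 6.65 CPM, while replicate 6 at 3.91 CPM was within the CTRL range. In HRT soleus it lay between 2.14 and 5.98 CPM in CTRL (median 4.52) and between 6.42 and 23.4 CPM in HI (median 9.87), without overlap. The fitted levels were 4.30-fold higher in LRT soleus (log2 fold change 2.10 ± 0.40) and 2.94-fold higher in HRT soleus (1.56 ± 0.39), values that chose the gene. These are low counts, with 68 to 1311 estimated counts of Prodh1 in a library.

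Plantaris did not choose Prodh1. In LRT plantaris it lay between 3.19 and 10.1 CPM in CTRL (median 7.58) and between 7.98 and 25.8 CPM in HI (median 13.7). Of the 6 HI libraries 4 were above all CTRL libraries, and the log2 fold change of 0.94 ± 0.38 was just short of the threshold (edgeR adjusted p = 0.058). It passed without HI replicate 5 (1.04, adjusted p = 0.043) or HI replicate 6 (1.05, adjusted p = 0.035), which held the lowest HI values, and also by DESeq2 (0.94, adjusted p = 0.039), without RIN (0.97, adjusted p = 0.046) and with each muscle fitted alone (0.92, adjusted p = 0.022). In HRT plantaris Prodh1 lay between 8.72 and 19.4 CPM in CTRL (median 11.3) and between 17.3 and 41.7 CPM in HI (median 20.3). Here 4 HI libraries were above all CTRL libraries and 5 CTRL libraries were below all HI libraries, with a log2 fold change of 0.98 ± 0.37 (adjusted p = 0.080, and 0.034 with each muscle fitted alone). The plantaris values of the lines were nearly equal (DELTA -0.04 ± 0.53, adjusted p = 1), and DELTA in soleus, not tested, was 0.54 ± 0.54. With 1 library left out it lay between 0.29 (without LRT HI replicate 4) and 0.81 (without HRT HI replicate 1), and limma-voom gave 0.29.

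Without a cast, every HRT CTRL plantaris library was above every HRT CTRL soleus library for Prodh1. The fitted plantaris level was 2.88-fold higher (log2 difference 1.53 ± 0.39), and in LRT CTRL the difference was 0.68 ± 0.40. The CTRL soleus libraries of both lines entered the comparisons that chose Prodh1, a choice that favours low values in them, so neither difference carries a test. The same holds for the line difference in CTRL soleus, at 0.04 ± 0.39. In CTRL plantaris LRT minus HRT was -0.80 ± 0.38 and did not pass (unadjusted p = 0.039, adjusted p = 0.43), with 0.525% of all genes (89) called. That count was 163 by DESeq2, 32 without LRT CTRL replicate 3 and 49 to 54 without any 1 of HRT CTRL replicates 3, 4, 5 and 6. From the lowest median to the highest the groups were HRT CTRL soleus, LRT CTRL soleus, LRT CTRL plantaris, HRT HI soleus, HRT CTRL plantaris, LRT HI plantaris, LRT HI soleus and HRT HI plantaris, with overlap between neighbours at each step.

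Sqrdl had fitted responses of opposite sign in the lines. In HRT soleus it lay between 6.38 and 23.3 CPM in CTRL (median 7.54) and between 9.02 and 74.0 CPM in HI (median 34.1). HI replicates 3, 4, 5 and 6, at 32.7 to 74.0 CPM, were above all CTRL libraries, whereas HI replicates 1 and 2, at 9.02 and 12.1 CPM, were inside the CTRL range. The log2 fold change of 1.57 ± 0.45 is the value that chose the gene. In LRT soleus it lay between 21.4 and 60.4 CPM in CTRL (median 30.9) and between 9.18 and 62.2 CPM in HI (median 17.3). Of the HI libraries 5 were below all CTRL libraries and 1, replicate 1 at 62.2 CPM, was above all of them. The log2 fold change was -0.73 ± 0.42 (edgeR adjusted p = 0.25) with replicate 1 and -1.27 (adjusted p = 0.042) without it. DELTA in soleus was -2.30 ± 0.59, or -2.90 without LRT HI replicate 1 and -2.02 without HRT HI replicate 3, the ends of the range with 1 library left out, given without a test because HRT soleus chose the gene.

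The plantaris values of Sqrdl were not used in the choice. In HRT plantaris it lay between 13.5 and 31.4 CPM in CTRL (median 21.3) and between 12.7 and 55.3 CPM in HI (median 45.9), with 4 HI libraries above all CTRL libraries and 1, replicate 1, below all of them. The log2 fold change of 0.94 ± 0.42 did not pass (adjusted p = 0.14) and passed with each muscle fitted alone (1.01, adjusted p = 0.021). In LRT plantaris it lay between 30.1 and 56.8 CPM in CTRL (median 44.0) and between 23.0 and 48.8 CPM in HI (median 32.0), with a log2 fold change of -0.32 ± 0.41 (adjusted p = 0.60). DELTA in plantaris was -1.26 ± 0.58, with an unadjusted p of 0.036 and an adjusted p of 0.80 in edgeR, and so did not pass over all genes.

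In CTRL soleus the fitted level of Sqrdl was 3.07-fold higher in LRT than in HRT rats (log2 difference 1.62 ± 0.43), with 4 LRT libraries above all HRT libraries and 5 HRT libraries below all LRT libraries. With 1 library left out the value lay between 1.42 and 1.99. Between the same groups 2 of 6 fast fibre markers, Myoz1 (1.44, adjusted p = 0.0017) and Mylpf (1.45, adjusted p = 0.047), were higher in LRT and 0 lower. In this comparison 1.45% of all genes were called in either direction. The fast marker sum lay between 2400 and 4340 CPM in LRT and between 1680 and 2860 CPM in HRT. The part of these markers in the Sqrdl difference was not tested. The HRT CTRL soleus libraries entered the comparison that chose Sqrdl, a choice that favours low values in them and so a difference of this sign, and no test is given. The same libraries enter the excess of plantaris over soleus in HRT CTRL, at 0.93 ± 0.42 on the log2 scale and 1.34 without HRT CTRL soleus replicate 2, the highest of its group at 23.3 CPM. In CTRL plantaris, which was not used in the choice, the line difference was 1.05 ± 0.42 (unadjusted p = 0.015, adjusted p = 0.31), with 5 LRT libraries above all HRT libraries. In LRT CTRL plantaris exceeded soleus by 0.37 ± 0.42 (adjusted p = 0.55), and by 0.58 without soleus replicate 2. By median the groups ran HRT CTRL soleus, LRT HI soleus, HRT CTRL plantaris, LRT CTRL soleus, LRT HI plantaris, HRT HI soleus, LRT CTRL plantaris and HRT HI plantaris, and neighbours overlapped throughout.

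The spread of Sqrdl within a group followed the replicate number across the muscles. In HRT HI rats, replicates 1 and 2 were the lowest in plantaris (12.7 and 26.8 CPM) and in soleus (9.02 and 12.1 CPM), and replicate 4 was the highest in both (55.3 and 74.0 CPM). In HRT CTRL rats, replicates 1 and 2 were the highest in plantaris (28.7 and 31.4 CPM) and in soleus (15.7 and 23.3 CPM). In LRT CTRL rats, replicates 1 and 2 again held the highest values in both muscles, and in LRT HI rats replicate 1 did. Each rat gave both muscles, but the labels do not say that libraries of the same line, treatment and number come from the same rat. Over the 24 such pairs, the deviations of log2 CPM from the group mean in plantaris and soleus correlated with Pearson's r = 0.86 (permutation p = 1e-05) and Spearman's rho = 0.88 (permutation p = 1e-05), the smallest value 100000 resamples can give, and r was 0.86 without the 2 pairs farthest from the median. Within groups of 6 pairs r was 0.95 (LRT CTRL), 0.84 (LRT HI), 0.76 (HRT CTRL) and 0.91 (HRT HI). Of 16955 genes 0.531% had an r as high, and the median r was 0.23.

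The same measure for Prodh1 was r = 0.69 (permutation p = 0.00065) and rho = 0.68 (permutation p = 0.0011), with r = 0.61 without the 2 farthest pairs, and 4.89% of genes were as high. For Rtn4ip1 r was 0.76 (permutation p = 0.001) and rho 0.52 (permutation p = 0.031), with r = 0.63 without the 2 farthest pairs, and 2.28% of genes were as high. For Ckmt2 r was 0.64 (permutation p = 0.0031) and rho 0.60 (permutation p = 0.0087), with r = 0.55 without the 2 farthest pairs, and 7.37% of genes were as high. The relation did not hold in every group. It was negative in LRT CTRL for Ckmt2 (-0.36) and Rtn4ip1 (-0.29) and in HRT CTRL for Prodh1 (-0.15), while in HI rats it lay between 0.67 and 0.96 for these 3 genes in each line. The pattern was examined after the values of the libraries had been seen, the 4 p-values are 2-sided and unadjusted, and resampling was within line and treatment.

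**Figure D3:**
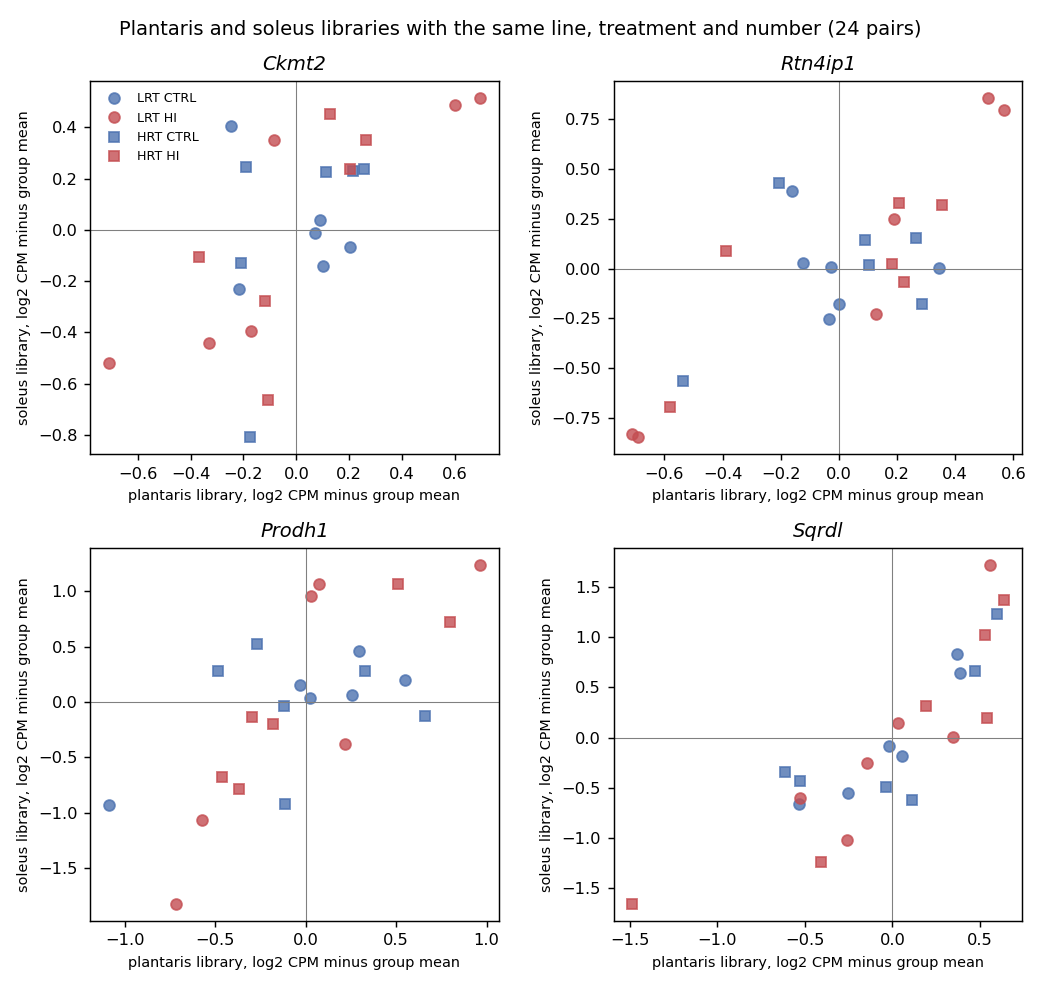
Deviation of log2 CPM from the group mean in plantaris (x axis) and soleus (y axis) for the 24 pairs of libraries with the same line, treatment and number; circles are LRT, squares HRT, blue CTRL and red HI. The Sqrdl points run along a rising diagonal in all 4 groups (r = 0.86), and the Ckmt2 points of LRT CTRL do not (r = -0.36).

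In soleus Ckmt2, Rtn4ip1 and Prodh1 varied together from library to library. The share of all genes with relations as strong was not computed, so nothing here makes the relations particular to these genes. The deviations of Ckmt2 and Prodh1 ran opposite to each other over 24 soleus libraries (r = -0.77, permutation p = 4e-04, rho = -0.83, permutation p = 0.00017, and r = -0.78 without the 2 farthest libraries). Rtn4ip1 and Prodh1 also ran opposite (r = -0.75, permutation p = 0.0024, rho = -0.75, permutation p = 0.0013, and r = -0.69 without the 2 farthest). Ckmt2 and Rtn4ip1 ran together (r = 0.69, permutation p = 0.0031, rho = 0.73, permutation p = 0.0017, and r = 0.69 without the 2 farthest). Among the immobilized rats LRT split as described for Ckmt2, and the same sets of replicates differed in the fibre, fibroblast and erythroid marker sums given below. Over the 12 HI libraries r was -0.91 for Ckmt2 and Prodh1, -0.79 for Rtn4ip1 and Prodh1 and 0.86 for Ckmt2 and Rtn4ip1, and over the 12 CTRL libraries it was -0.42, -0.55 and 0.23, and the difference between HI and CTRL was not tested.

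In plantaris Ckmt2 and Rtn4ip1 again ran together (r = 0.58, permutation p = 0.034, rho = 0.60, permutation p = 0.0086, and r = 0.51 without the 2 farthest), with r = 0.72 over 12 HI and 0.04 over 12 CTRL libraries. For Prodh1 in plantaris neither relation passed, with r = -0.22 against Ckmt2 (permutation p = 0.40, rho = -0.16, permutation p = 0.49, r = -0.13 without the 2 farthest libraries) and r = -0.23 against Rtn4ip1 (permutation p = 0.35, rho = -0.32, permutation p = 0.17, r = -0.26 without the 2 farthest). For Ckmt2 and Prodh1 the sign differed between the 12 HI (-0.56) and the 12 CTRL libraries (0.55) of plantaris. Sqrdl had r between -0.32 and 0 with each of the other members in both muscles. In all 12 relations were computed, the p-values are 2-sided and unadjusted, and these pairs too were looked at with the libraries' values known.

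**Figure D4:**
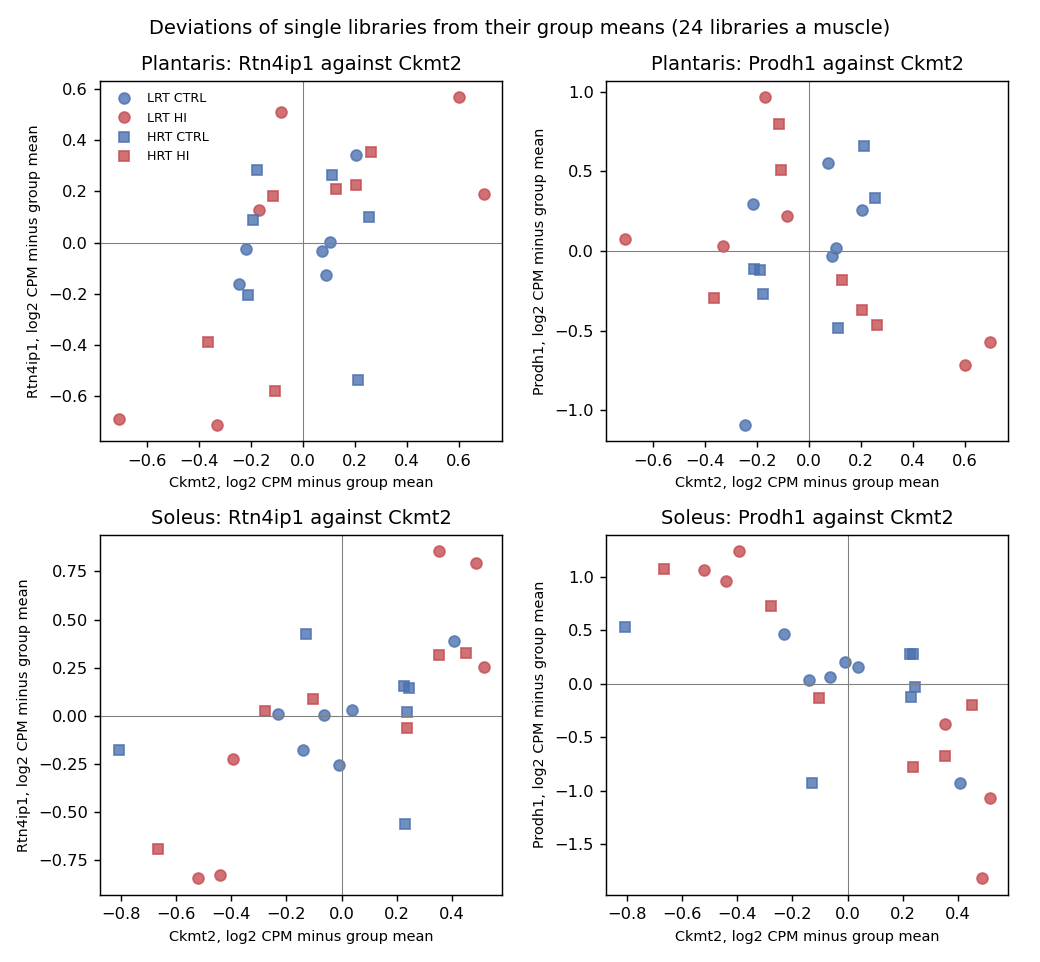
Deviation of log2 CPM from the group mean for Rtn4ip1 (left) and Prodh1 (right) against Ckmt2, in 24 plantaris libraries (top) and 24 soleus libraries (bottom); circles are LRT, squares HRT, blue CTRL and red HI. In soleus the Prodh1 points slope downwards against Ckmt2 (r = -0.77), and in plantaris they scatter (r = -0.22).

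Across the 48 libraries, the named genes whose levels were most like those of Ckmt2 were Mdh1, the cytosolic malate dehydrogenase (r = 0.96, the highest of all genes), and Lrrc39 (r = 0.93, rank 4). By deviations from the group means they were Atp5g3 (r = 0.92, rank 3) and Atp5c1 (r = 0.91, rank 5), both subunits of ATP synthase. For Rtn4ip1 they were Nr1i3 and Gamt by level (both r = 0.89) and Mrpl12 and Gamt by deviation (both r = 0.84). Gamt codes for the enzyme of the last step of creatine synthesis and Mrpl12 for a mitochondrial ribosomal protein. For Prodh1 they were Slc25a28, a mitochondrial iron carrier, and Sh3rf2 by level (both r = 0.83), and Mettl7a (r = 0.82) and Sh3rf2 (r = 0.81) by deviation. Sqrdl had no gene so close, with Rasd1 (r = 0.51, rank 13) and Arrdc2 (r = 0.49, rank 22) by level and C4a (r = 0.46, rank 34) and Thbs1 (r = 0.44, rank 53) by deviation. The highest r of any gene with Sqrdl was 0.58 by level and 0.64 by deviation. Only genes with a paired symbol could be named, and both muscles of a rat enter these 48 points.

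The response of Ckmt2 and Rtn4ip1 was set beside 45 other mitochondrial and related genes in 7 lists. The related genes are 2 of creatine synthesis and adenylate kinase and 4 regulators of mitochondrial genes. Each of these genes has a symbol here because the study listed it as changed in these libraries. The counts and the adjusted p-values of these genes are thus a description and no independent evidence of direction. Over all tested genes 13.6%, 5.85%, 6.58% and 8.23% were called lower and 15.1%, 5.11%, 7.36% and 7.95% higher in LRT plantaris, HRT plantaris, LRT soleus and HRT soleus. Those shares rest in part on single libraries. In HRT plantaris 1859 genes were called in all, and 933, 1072 and 1086 without HI replicate 4, HI replicate 1 and CTRL replicate 6. In LRT soleus 2364 were called, and 1261 and 1448 without HI replicates 3 and 1. In HRT soleus 2744 were called, and 1376 without HI replicate 1. In LRT plantaris 34 of the 45 fell, 5 rose and 6 did not pass, with a median log2 fold change of -1.01 against 0.01 over all tested genes. In HRT plantaris 23 fell, 2 rose and 20 did not pass (median -0.67, all genes 0.02). In LRT soleus 14 fell, 4 rose and 27 did not pass (median -0.46, all genes 0.01). In HRT soleus 10 fell, 3 rose and 32 did not pass (median -0.34, all genes 0.01). With 1 library left out, the number that fell lay between 33 and 35 in LRT plantaris, 12 (without HI replicate 4) and 24 in HRT plantaris, 5 (without HI replicate 3) and 23 (without HI replicate 5) in LRT soleus, and 3 (without HI replicate 1) and 17 (without HI replicate 6) in HRT soleus. DELTA passed for 0 of the 45 in either muscle by edgeR, where 0% of all genes passed in plantaris and 0.0295% in soleus, so this count says nothing particular to these genes.

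The respiratory chain and ATP synthase list was the most uniform. All 13 of its genes fell in plantaris of both lines, with medians of -1.02 in LRT and -0.69 in HRT. In soleus 5 fell in LRT and 3 in HRT. In LRT plantaris the 13 lay between -1.14 and -0.92, near the absolute value of 1 that the study's lists take. The uniformity there may follow in part from how the genes were named. Without HI replicate 4 of HRT plantaris 7 of the 13 fell there, and with 1 library left out the soleus counts lay between 1 and 13 in LRT and between 0 and 7 in HRT. Cycs, which codes for cytochrome c, had a log2 fold change of -1.14 in LRT plantaris (adjusted p = 7.3e-05) and -0.68 in HRT plantaris (adjusted p = 0.025). Ndufs1, a complex I subunit, fell in all 4 comparisons, by -1.01 and -0.75 in LRT and HRT plantaris and by -0.65 and -0.48 in LRT and HRT soleus (adjusted p = 1.3e-05, 0.0021, 0.0036 and 0.029). Coq9, like Rtn4ip1 tied to coenzyme Q, fell in plantaris (LRT -0.92, HRT -0.66, adjusted p = 0.00025 and 0.017) and had values of -0.44 and -0.39 in LRT and HRT soleus that did not pass.

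Of the 9 fuel oxidation genes 8 fell in LRT plantaris and 4 in each other comparison. Oxct1, the ketone body enzyme, fell in all 4 (-1.52, -1.02, -1.32 and -1.04 in LRT plantaris, HRT plantaris, LRT soleus and HRT soleus, with adjusted p = 0.00033, 0.026, 0.0036 and 0.019). Pdp1, a phosphatase that activates pyruvate dehydrogenase, fell in LRT plantaris (-0.94, adjusted p = 0.0014) and rose in HRT soleus (0.73, adjusted p = 0.022). Next to Ckmt2 in the creatine system, Gamt fell in LRT plantaris (-1.29, adjusted p = 0.00022) and HRT plantaris (-0.86, adjusted p = 0.024), and in LRT soleus just inside the threshold (-0.71, adjusted p = 0.0498). Ak1, a cytosolic adenylate kinase, fell in LRT plantaris (-1.06, adjusted p = 0.0022), and neither gene of this list rose or fell in HRT soleus. Among the 8 genes of translation, import and structure, 5 fell in LRT plantaris, 4 in HRT plantaris and 2 in each soleus comparison, and Tomm40l, of the import channel family, fell in all 4. Chchd6, of the cristae junction complex, rose in LRT plantaris (1.32, adjusted p = 0.0024) and LRT soleus (1.14, adjusted p = 0.024).

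Beside Prodh1, the amino acid and one-carbon list held a gene that rose in all 4 comparisons. Mthfd1l, the mitochondrial one-carbon enzyme, had log2 fold changes of 1.70 and 1.16 in LRT and HRT plantaris and of 1.25 and 1.06 in LRT and HRT soleus (adjusted p = 3e-06, 0.0014, 0.00024 and 0.0013). Gpt2, the mitochondrial alanine transaminase, fell in LRT plantaris (-1.03, adjusted p = 0.00031) and did not pass elsewhere, and Phykpl passed nowhere. The 6 carriers were mixed, with 3 higher and 2 lower in LRT plantaris. Slc25a28, the gene with a paired symbol most like Prodh1 by level, rose in HRT plantaris (0.52, adjusted p = 0.039), LRT soleus (1.08, adjusted p = 9.2e-05) and HRT soleus (0.97, adjusted p = 0.0002), and had 0.28 in LRT plantaris (adjusted p = 0.22). Of the 4 regulators, Ppargc1a, the coactivator of mitochondrial biogenesis, fell in LRT plantaris (-1.01 ± 0.28, adjusted p = 0.0062). Its values of -0.38, -0.29 and -0.05 in HRT plantaris, LRT soleus and HRT soleus did not pass (adjusted p = 0.40, 0.54 and 0.93), nor did DELTA in plantaris (-0.63 ± 0.39, adjusted p = 0.82). Perm1 fell in all but HRT soleus (-2.32 in LRT plantaris, adjusted p = 0.00015). Esrrg fell in soleus (-1.07 in LRT and -1.03 in HRT, adjusted p = 0.00066 and 0.00097).

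**Figure D5:**
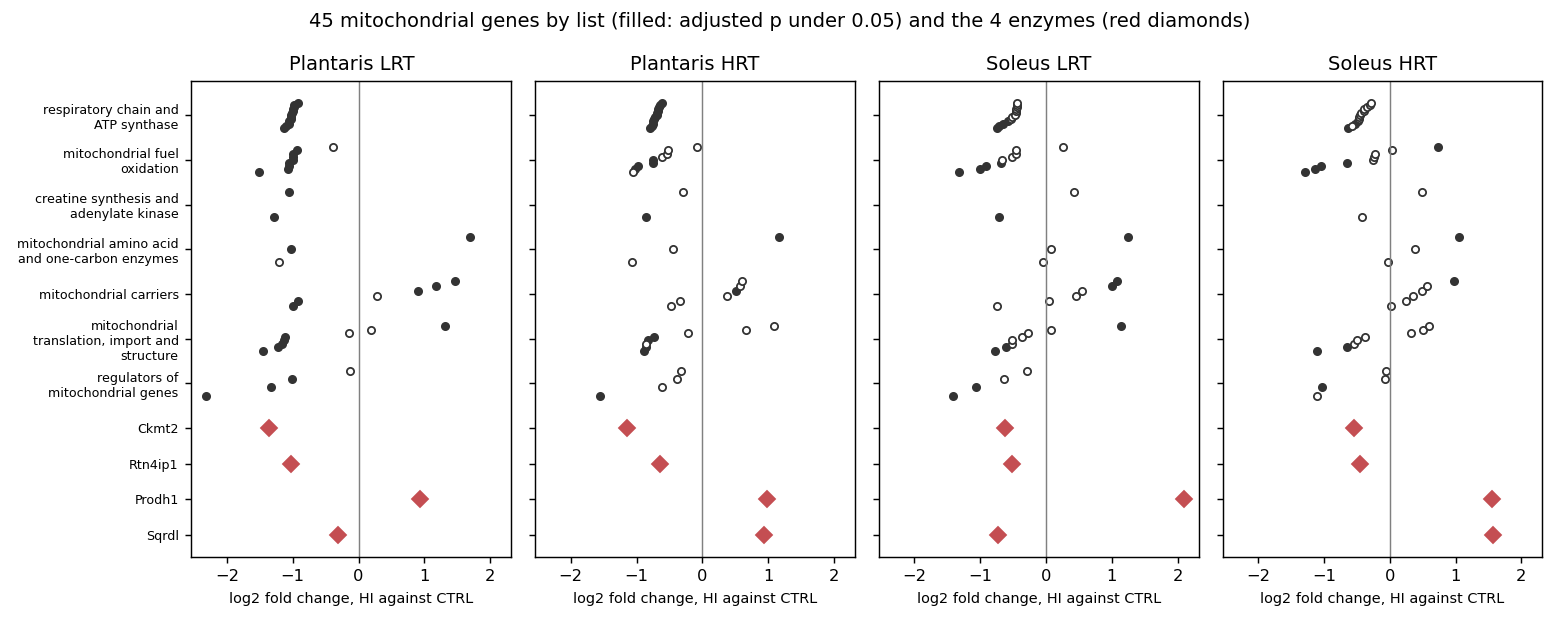
Log2 fold change of HI against CTRL for 45 mitochondrial and related genes in 7 lists (filled points passed at an adjusted p under 0.05) and for the 4 enzymes (red diamonds) in the 4 comparisons. The list genes were named only because the study listed them as changed. The 13 respiratory chain and ATP synthase genes form a narrow band with a median of -1.02 in LRT plantaris that moves to -0.45 in HRT soleus, and Prodh1 lies to the right of 0 in every panel.

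Markers of fibre types and of other cells differed in level in the same comparisons. These genes too could be named only where the study listed them as changed in these libraries, so their counts, to be read against the shares of all genes given with the mitochondrial lists, are a description. In LRT plantaris, where Ckmt2 and Rtn4ip1 were lowest, the summed fast fibre markers went from 23800 to 31600 CPM in CTRL to 7120 to 19800 CPM in HI, with 4 of 6 genes lower by the test, and in HRT plantaris from 19200 to 22600 CPM to 9390 to 18400 CPM, with 1 of 6 lower. Slow fibre and oxidative markers were also lower in LRT plantaris in 2 of 4 genes (Casq2 -1.42, adjusted p = 0.0035, and Fabp3 -1.25, adjusted p = 0.011), with sums of 2990 to 4560 CPM in CTRL and 1570 to 5080 CPM in HI. In HRT plantaris those sums were 2210 to 4390 CPM and 1870 to 3630 CPM, and 1 of the 4 genes, Pln, was higher (0.95, adjusted p = 0.0066). HI replicates 1 and 3 of LRT plantaris, the lowest for Rtn4ip1 and for Ckmt2, had the lowest sums of both fibre lists. Their fast marker sums were 7120 and 7960 CPM. Their slow fibre and oxidative sums were 1570 and 1590 CPM, against 2470 to 5080 CPM in the other HI libraries. The part of these markers in the levels of both genes was not tested. In LRT soleus the slow fibre and oxidative markers summed to 13800 to 23300 CPM in CTRL and 5000 to 16100 CPM in HI (1 of 4 genes lower). Most of the slow sum is 1 gene, Car3, at 11800 to 21700 CPM in CTRL and 4660 to 14300 CPM in HI (-1.12, adjusted p = 0.0063), while Pln was at 0.31 (adjusted p = 0.39). The fast marker Pvalb rose in LRT soleus (3.23, adjusted p = 2e-04), as 1 of 6 fast markers, and their sum lay between 2400 and 4340 CPM in CTRL and between 1900 and 4290 CPM in HI. The HI libraries with the highest Prodh1 there, replicates 1, 3 and 4, held the lowest slow marker sums (5000 to 6060 CPM). They also held the lowest fast marker sums (1900 to 2610 CPM, against 2730 to 4290 CPM in the other 3), the lowest fibroblast marker sums (196 to 313 CPM against 494 to 1040 CPM) and the highest erythroid marker sums (994 to 1450 CPM against 489 to 904 CPM), and the part of these in the Prodh1 values was not tested. In HRT soleus the slow sums were 11600 to 21900 CPM in CTRL and 4690 to 18600 CPM in HI, with 1 of 4 genes, Pln, higher (1.14, adjusted p = 0.00076) and 0 lower.

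In HRT soleus, where Sqrdl was higher, all 6 erythroid and all 4 myeloid markers rose, beside 7.95% of all genes. They could be named only because the study listed them as changed, and they passed in this HI comparison alone. The full count here, and its absence elsewhere, may thus follow from the naming and are no independent result. The erythroid sum lay between 163 and 611 CPM in CTRL and between 224 and 10600 CPM in HI, where replicate 5 alone was at 10600 CPM, the next at 1560 CPM, and replicates 1 and 3 (224 and 399 CPM) inside the CTRL range. Without replicate 5, 4 of the 6 erythroid markers rose, and with each muscle fitted alone 1 did. The myeloid sum lay 2.39 and 6.60 CPM in CTRL and between 7.56 and 28.5 CPM in HI, and 3 or 4 of the 4 markers rose with any 1 library left out. HI replicate 4, the highest for Sqrdl at 74.0 CPM, had the highest myeloid sum (28.5 CPM), but replicate 3, the next at 58.2 CPM, had 8.93 CPM. In the other 3 comparisons no erythroid or myeloid marker passed. The fibroblast markers were lower by the test in 6 of 6 genes in LRT plantaris, 5 in HRT plantaris, 1 in LRT soleus and 3 in HRT soleus. Without HI replicate 3 the count in LRT plantaris was 3, without HI replicate 6 that in LRT soleus was 3, and that in HRT plantaris lay between 3 and 6 with 1 library left out. In LRT plantaris their sum went from 634 to 1360 CPM to 231 to 801 CPM, in HRT plantaris from 682 to 1330 CPM to 232 to 702 CPM, in LRT soleus from 533 to 1130 CPM to 196 to 1040 CPM, and in HRT soleus from 542 to 2880 CPM to 460 to 989 CPM. In HRT CTRL soleus, replicates 1 and 2 held the highest fibroblast sums (2880 and 2430 CPM), with the next at 1050 CPM. These replicates also held the highest Sqrdl values of that group (15.7 and 23.3 CPM). The part of the erythroid, myeloid and fibroblast markers in the results for the 4 enzymes was not tested.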

How the data were processed

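The members and gene lists were chosen with earlier results of these data known. RNA of plantaris and soleus from 24 rats was sequenced in 48 libraries. Per the methods and the submitters' processing notes, the authors quantified transcripts with Salmon 0.9.1 against Ensembl release 91 (Rnor_6.0, cDNA and non-coding RNA) and summed them per gene with tximport, scaled for length. The deposited values are estimated counts without normalization between libraries, of which 55.9% were over 0.01 from a whole number, and they were rounded before the fits. Totals were 26.8 M to 36.4 M counts a library, and fitted errors include the spread between rats. The labels name a TruSeq RNA kit and the methods a stranded total RNA kit, and how strand was set in the counting is not given in the sources used here.

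Groups were taken from the sample titles. All 48 libraries were fitted in 1 edgeR 4.0.16 quasi-likelihood model (R 4.3.3) with the 8 groups and RIN, after filterByExpr and TMM, and p-values were adjusted by Benjamini-Hochberg over 16960 genes. A call is an adjusted p under 0.05, and standard errors are the absolute log2 fold change over the square root of F. HI was compared with CTRL within muscle and line, DELTA is the LRT minus the HRT response, and uncast muscles and lines were compared in the same fit. Tests planned for such differences were dropped where their CTRL libraries had entered a member's choosing comparison. Correlations used log2 CPM with a prior count of 2 (100000 resamples). The alternatives tried were limma-voom (limma 3.58.1), the DESeq2 1.42.0 Wald test, edgeR with DESeq2's size factors, no RIN, no filter on low counts, replicate blocks, each muscle alone, and each library left out. As a check for a library deposited more than once, the 120 pairs of libraries within groups were compared, and none agreed within sampling noise (chi-square per gene at least 12).

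Named genes are the 4 members, list genes with a paired identifier, and for each member the 2 named genes most like it by level and by deviation. Symbols come from the study's gene tables, which pair 1142 identifiers. Myosin heavy chain genes have no paired identifier, and 1 gene of the fuel oxidation list is not reported here. The fold change and p-value columns of those tables were not used. Promoters were matched by symbol for 3 of the 4 members. Figures were drawn with matplotlib 3.10.9.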

Additional observations from a re-analysis of the deposited data

Results flagged for a closer look

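In 32 groups of 6 libraries (4 genes in 8 groups), 3 had an end value far from the other 5 by Dixon's criterion, which chance meets in about 1 of 20 groups. Ckmt2 in LRT CTRL soleus reached 2780 CPM in replicate 3, with the next library at 2160 CPM and the lowest at 1790 CPM. Rtn4ip1 in LRT CTRL plantaris reached 33.4 CPM in replicate 2, with the next at 26.3 CPM and the lowest at 23.5 CPM. Sqrdl in LRT HI soleus reached 62.2 CPM in replicate 1, with the next at 20.8 CPM and the lowest at 9.18 CPM. The same number held the highest Sqrdl value of LRT HI plantaris (48.8 CPM).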

How the results depend on the processing

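Directions kept in all alternatives other than leaving out a library. With each muscle alone, Ckmt2 in LRT soleus (-0.65) no longer passed, as without the filter on low counts (-0.62), while Prodh1 in LRT and HRT plantaris (0.92 and 0.96) and Sqrdl in HRT plantaris (1.01) then passed. Prodh1 in LRT plantaris also passed by DESeq2 (0.94) and without RIN (0.97), and Ckmt2 in HRT soleus by DESeq2 (-0.56). The causes were not tested.

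Same-numbered libraries of the muscles correlated over 0.1 in 22 of 24 pairs (lowest -0.05) and 22 were closest to their own number in their group, while HI and CTRL libraries of the same number, which are different rats, did so in 0 of 24. The labels tie no number to a rat and 2 muscle pairs were below 0.1, so the reported model has no block. With the replicate number as a block, Rtn4ip1 in HRT plantaris (-0.67) and LRT soleus (-0.63) and Ckmt2 in HRT soleus (-0.58) passed. That block joins the same number across lines and treatments, which are different rats, so it matches no unit of the design. With number, line and treatment as a rat block, the CTRL muscle difference of Rtn4ip1 in HRT passed (0.32, adjusted p = 0.036). Neither block changed another tested call.

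With each library left out, the range was 0.71 to 1.06 for Prodh1 in LRT plantaris, -0.72 to -0.51 for Ckmt2 in LRT soleus and -0.66 to -0.43 in HRT soleus, -0.69 to -0.37 for Rtn4ip1 and -1.27 to -0.52 for Sqrdl in LRT soleus. Values near 0 changed sign: DELTA of Prodh1 in plantaris (-0.28 to 0.16), DELTA of Ckmt2 (-0.20 to 0.04) and Rtn4ip1 (-0.27 to 0.08) in soleus, and the CTRL line differences of Rtn4ip1 (-0.01 to 0.20) and Prodh1 (-0.10 to 0.17) in soleus. DELTA called 5 genes in soleus, and 35 by DESeq2, 9 without RIN, 0 with each muscle alone and 3 to 81 with a library left out (81 without HRT HI replicate 6, 20 without LRT CTRL replicate 1, 18 without LRT HI replicate 6, and 12 without HRT CTRL replicate 4 or LRT CTRL replicate 5). In plantaris it called 0, and 6 by DESeq2, 2 by limma-voom and up to 3 with a library left out (without LRT HI replicate 6). With each muscle alone, HI called 1493 genes in LRT soleus and 1207 in HRT soleus.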
